A study of Mus musculus with 12 samples.

Results

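The subject is the comparison of activin A with activin A plus follistatin in cultured mouse granulosa cells, read across every gene that could be named from the probe identifiers. It rests on 8 of the 12 arrays of the study, chosen by their titles: 4 of cells given activin A and 4 of cells given activin A together with follistatin, both for 24 h. The other 4 arrays, from cells given PBS as vehicle for the same time, entered the fit and serve here to place both treatments. The cells of all 3 groups were primary cultures from pools of 14 to 20 ovaries, taken from immature mice 21 to 23 days old. The whole experiment was done 4 times, and each experiment gave 1 array of each treatment under the same number. Neither strain nor dose is given in the sources used here, and follistatin without added activin was not analysed here. About 100 ng of RNA per sample was amplified with a T7 method and read on Illumina Sentrix Mouse-6 bead arrays.

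Activin is a dimer of inhibin beta subunits and belongs to the transforming growth factor beta family. It binds type II receptors, which recruit and phosphorylate the type I receptor ALK4, and the signal passes through SMAD2 and SMAD3, which enter the nucleus with SMAD4. Granulosa cells, the somatic cells that surround the oocyte and make estradiol, both secrete activin and respond to it, and activin is known to promote their proliferation and their response to follicle-stimulating hormone. Follistatin is a secreted glycoprotein that wraps around activin and covers its receptor-binding surfaces. Its gene is itself a known activin target, which closes a negative feedback loop.

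Values are signals on the authors' log2 scale, and differences are log2 differences, activin minus activin plus follistatin, with the standard error (SE) of a fit that treats the experiment as a block. A gene was called when its adjusted p from limma, corrected by the Benjamini-Hochberg method over 46093 probes, was under 0.05. The highest mean signal of a control spot, 7.31, is used as background. Signals end close to that level and not at 0, so the differences of genes near it may be understated. Across the arrays the medians lay between 7.17 and 7.18 and the correlation between pairs of arrays between 0.967 and 0.994. A gene name was available for 9854 probes of 8144 genes, and where a gene had several probes the one with the highest mean stands for it. The other 36239 probes were tested without a name. These are whole cultures, in which fewer cells of a type and less RNA per cell cannot be told apart.

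The labelled cell type was set against marker lists. Of 6 measured granulosa genes 5 averaged above background and the other did not. Among those above it, Amhr2, the receptor of anti-Müllerian hormone, averaged 12.69 over the 12 arrays. Wt1, a transcription factor of gonadal somatic cells, averaged 9.38, Bex4 8.004 and Gata4 7.71. Foxl2, Fshr, Cyp19a1 and Amh were not among the named genes. Of the markers of other cells, the 3 erythroid, 10 macrophage and leukocyte and 6 endothelial genes had means of at most 7.47, and those of the 3 oocyte genes were at most 7.36. The oocyte genes Nlrp5 and Dppa3 stood out in experiment 1: Nlrp5 read 8.13 with activin and 8.54 with activin plus follistatin there, against at most 7.19 on the other 6 arrays of these groups. Defining theca and stroma genes were near background as well, with Insl3 at 6.98, Lhcgr at 7.21, Star at 7.65, Col1a1 at 7.44 and Col1a2 at 7.10. Exceptions on that list were Aldh1a1 (14.04), Dcn (9.33) and Col3a1 (8.45), whose values follow with the other matrix genes. The 5 surface epithelium genes had means of up to 9.0, with 3 above background, and of the 2 smooth muscle genes Acta2 averaged 7.93.

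Activin with and without its antagonist differed in similar numbers of transcripts in each direction. Of 8144 named genes 1533 were called, which is 18.8%, with 727 higher (8.93%) and 806 lower (9.90%) in cells with activin. Without the experiment as a block, 969 genes were called, 447 higher and 522 lower, and when values below background were raised to it, 880, 404 higher and 476 lower. The median size of a called difference was 0.39 in both directions. In 166 genes, 90 higher and 76 lower, the size was over 1, and in 19, 7 higher and 12 lower, over 2. Signal level mattered for the calls: of 4082 genes above background 36.1% were called, of the 4062 others 1.48%. The list counts given below are to be read against these shares, since lists differ in how many members lie above background. All 4 arrays of one group lay above all 4 of the other in 1295 named genes (15.9%), of which 1060 were called. The direction was the same in all 4 experiments in 1497 of the called genes. The fit is blocked by experiment, so a call in itself favours such agreement. Over all probes, 5087 were called (11.0%), 3439 of them unnamed. Among the unnamed probes, differences reached 5.49 upward and -4.06 downward, and 4 rises were larger than that of any named gene. Called genes had 180 further probes above background, of which 85 were called, all in the same direction as the first probe. The second probes of Birc2, Tgfbr1 and Tuba3a, near background, were not called (-0.00, -0.06 and -0.04).

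**Figure D1:**
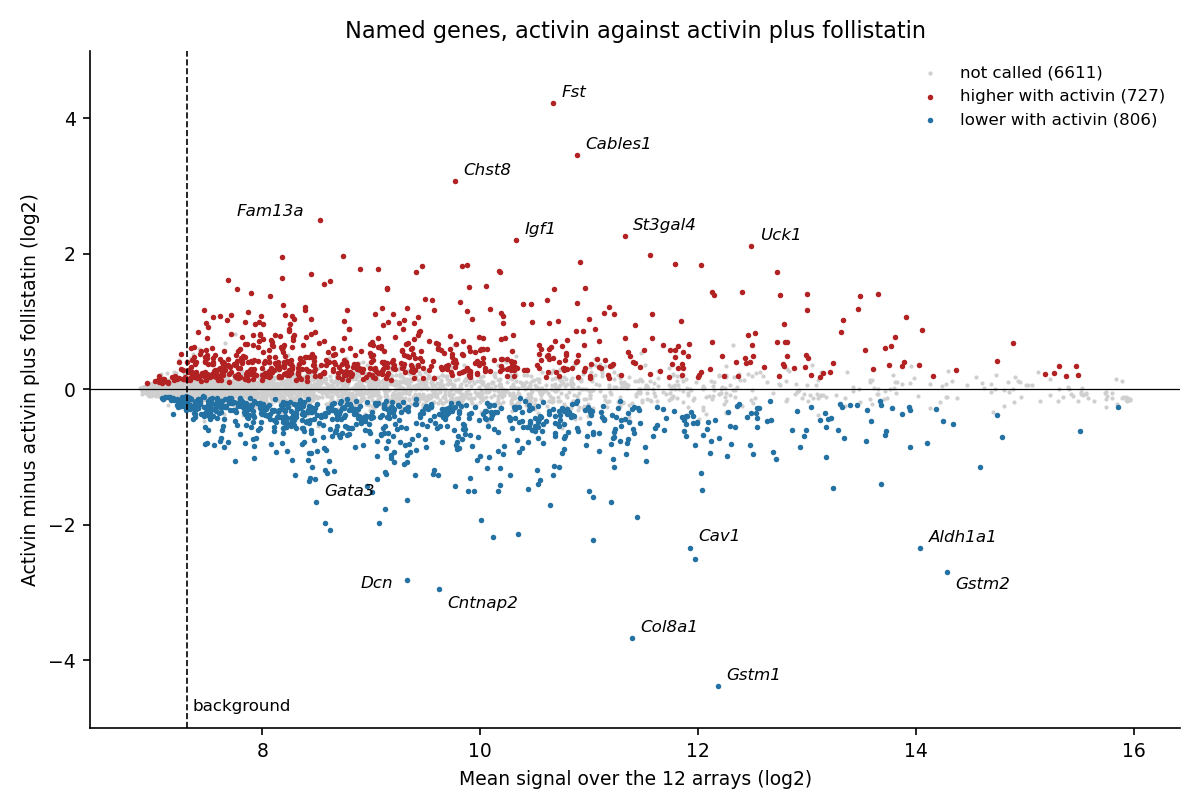
Difference between activin and activin plus follistatin (log2, vertical axis) against the mean signal over the 12 arrays (log2, horizontal axis) for 8144 named genes. Each point is 1 gene: red points are the 727 called higher with activin, blue points the 806 called lower, and the dashed line marks background at 7.31. Fst at 4.22 and Gstm1 at -4.39 lie farthest from 0.

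The PBS cultures lay between both treatments for most of these genes. Their mean fell between those of the 2 treatments in 636 of the 727 genes called higher (87.5%) and in 759 of the 806 called lower (94.2%). These genes were selected for a gap between the treatments, which in itself favours a PBS mean inside it. The share over all named genes was not computed. The median distance from PBS was 0.28 for activin and -0.12 for activin plus follistatin among the genes called higher, and -0.25 and 0.16 among those called lower. Against PBS itself, activin differed in 863 named genes (10.6%) and activin plus follistatin in 176 (2.16%). These 3 comparisons share arrays. Of the genes called higher between the treatments, 347 were called only for activin against PBS, 23 only for activin plus follistatin against PBS, 51 for both and 306 for neither. Of those called lower, the counts were 325, 19, 78 and 384. Over all named genes, both treatments were called on the same side of PBS in 3 and on opposite sides in 128. The 3 were Klhl25, Zc2hc1a and Zfp862-ps, which are named because they are so few. Zc2hc1a and Zfp862-ps were not called between the treatments.

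Fst, which encodes follistatin, had the largest rise of a named gene. Its signal was 13.02, 12.88, 12.66 and 13.11 in the 4 activin arrays and 8.42, 9.20, 8.67 and 8.50 in the 4 arrays with follistatin added, in the order of the experiments. The groups were far apart, with PBS between them at 10.40 on average. The difference was 4.22 ± 0.15 (SE), or 18.6-fold if the scale is read as plain log2 (adjusted p = 2.81e-07, limma). Activin alone was 2.52 above PBS, and the difference of the combination from PBS was -1.70. The array reads the transcript, not the follistatin protein that was added to the cultures.

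Other parts of the activin pathway moved less. Of 8 measured ligands of the family 2 were higher and 0 lower. Bmp6, a bone morphogenetic protein, read 7.77, 7.62, 8.004 and 7.40 with activin and 7.14, 7.10, 7.08 and 7.04 with follistatin added, where it was at background (0.61 ± 0.10). Gdf15, a stress-induced ligand, followed the same pattern (0.58 ± 0.07), at background with PBS too (7.29). Of 10 receptors, Bmpr1b, a type I receptor for bone morphogenetic proteins, was higher (0.97 ± 0.09), Tgfbr1, the type I receptor for transforming growth factor beta, was lower (-0.60 ± 0.10), and Acvr1b, which encodes ALK4, was higher by 0.15 ± 0.04 at a level close to background. The call of Bmp6 was lost in limma with values raised to background (adjusted p = 0.117). Those of Bmpr1b and Tgfbr1 were lost in limma without the block (adjusted p = 0.0596 and 0.0931). The call of Acvr1b was lost without experiment 1, 2 or 3 and without either array of the pair in experiment 1, 2 or 3 (adjusted p = 0.063 to 0.233, limma). The one measured Smad, Smad4, was lower by a small amount (-0.24 ± 0.05). Its call was lost without experiment 3 or 4 and without the array with follistatin added of experiment 3 (adjusted p = 0.0564 to 0.08, limma).

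Among 7 inhibitors and binding proteins of the family, Fst was higher and 2 latent binding proteins, which hold transforming growth factor beta in the matrix, were lower. Ltbp1 read 8.66, 9.06, 9.46 and 8.86 with activin against 10.06, 10.50, 11.11 and 10.07 with follistatin added. The activin arrays were lower in every experiment and the groups did not overlap (-1.43 ± 0.06, adjusted p = 5.00e-07, limma), while the difference of Ltbp3 was small (-0.27 ± 0.06) and its call was lost without experiment 1 (adjusted p = 0.0958, limma). Of 5 target genes of the family known from other cells, Ccn1, a matrix-associated signalling protein (-0.98 ± 0.09), and Cited2, a transcriptional coregulator (-0.86 ± 0.09), were lower. Thbs1 at -0.34, Junb at -0.09 and Id3 at 0.06 were not called.

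The next largest rises were in genes of varied function. Cables1, whose product binds cyclin-dependent kinases, read 11.90, 13.21, 12.16 and 13.72 with activin and 9.24, 9.60, 8.91 and 9.42 with follistatin added. Its activin values differed by nearly 2 log2 units between experiments, yet all 4 were above every other array of the pair (3.46 ± 0.22). Chst8, a sulfotransferase that adds sulfate to the N-glycans of pituitary hormones and other glycoproteins, read 11.64, 11.18, 11.73 and 11.31 against 8.27, 8.62, 8.42 and 8.26 (3.07 ± 0.11, adjusted p = 2.81e-07, limma). Fam13a rose by 2.50 ± 0.15. St3gal4, a sialyltransferase, had the smallest p of all named genes: 12.29, 12.35, 12.55 and 12.43 against 9.92, 10.28, 10.19 and 10.21, a difference of 2.26 ± 0.06 (adjusted p = 3.91e-08, limma). Uck1, a kinase of the pyrimidine salvage pathway, had a difference of 2.11 ± 0.06, with its weaker probes at 0.73 and 0.83. With follistatin added, Cables1, Chst8, St3gal4 and Uck1 were all lower than with PBS as well, with differences from PBS of -1.35, -1.05, -1.30 and -1.02, and called in that comparison.

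Further down the list of rises stood genes that modify hormones, signals and traffic. Hsd11b2, which inactivates glucocorticoids, read 9.22, 9.05, 9.33 and 9.21 with activin and 7.28, 7.27, 7.28 and 7.15 with follistatin added, the latter at background (1.96 ± 0.08). Cyp1b1, a cytochrome P450 that hydroxylates estrogens, was a high-signal gene in both groups and differed by 1.74 ± 0.16. Cers5, a ceramide synthase, rose by 1.88 ± 0.08, Gramd1b, a sterol transport protein, by 1.82 ± 0.08, and Gfpt2, an enzyme of the hexosamine pathway, by 1.82 ± 0.09. The adaptor proteins Pdlim1 (1.84 ± 0.16) and Sh3kbp1 (1.78 ± 0.10, second probe 0.66) and the exchange factor Dock9 (1.83 ± 0.15) were also among the 20 largest rises. Pdlim1 differed from most of them in its place against PBS, with activin 0.46 above PBS, which was not called, and the combination at -1.38.

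Gstm1, a glutathione transferase, had the largest fall. Its signal was 10.06, 9.59, 9.72 and 9.83 with activin and 14.28, 13.82, 14.11 and 14.54 with follistatin added, a gap wider than 3 log2 units between the nearest arrays. The difference was -4.39 ± 0.12, or 21-fold lower (adjusted p = 6.52e-08, limma), and PBS stood at 12.54. The other named probe of this gene was at background and was not called (0.04). Gstm2, a paralog with a higher signal, differed by -2.70 ± 0.17, and its other probe by -2.58. Whether probes of these paralogs detect each other's transcripts was not tested. Of 19 glutathione and antioxidant genes 4 were higher and 4 lower: the microsomal transferase Mgst3 (-0.97 ± 0.07) and Gstt2 (-0.28 ± 0.04) were lower too, while Gclm, a subunit of the enzyme that limits glutathione synthesis, was higher (0.62 ± 0.09).

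Large falls also came from genes of the cell surface and signalling. Cntnap2, an adhesion protein of the neurexin family, read 8.36, 8.01, 7.92 and 7.60 with activin and 11.29, 10.56, 10.62 and 11.20 with follistatin added, with no overlap (-2.95 ± 0.14); a weaker second probe differed by -1.33. Slit2, a secreted guidance ligand, was close to background with activin, at 7.56, 7.63, 7.44 and 7.28, and at 9.40, 9.63, 9.42 and 9.74 with follistatin added (-2.07 ± 0.09). Nrp1, a coreceptor for semaphorins and vascular endothelial growth factor, differed by -1.97 ± 0.13. Other members of the 20 largest falls were the exchange factor Arhgef3 (-2.22 ± 0.13), the transmembrane glycoprotein Gpnmb (-2.19 ± 0.14), the Golgi protein Gask1b (-2.50 ± 0.12), Pcp4l1 (-1.98 ± 0.15), Bves (-1.94 ± 0.11), the phospholipid-binding protein Anxa1 (-1.71 ± 0.08) and the LIM domain protein Crip2 (-1.67 ± 0.11). In all of the named falls of this paragraph the mean with PBS lay between the other 2 means.

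**Figure D2:**
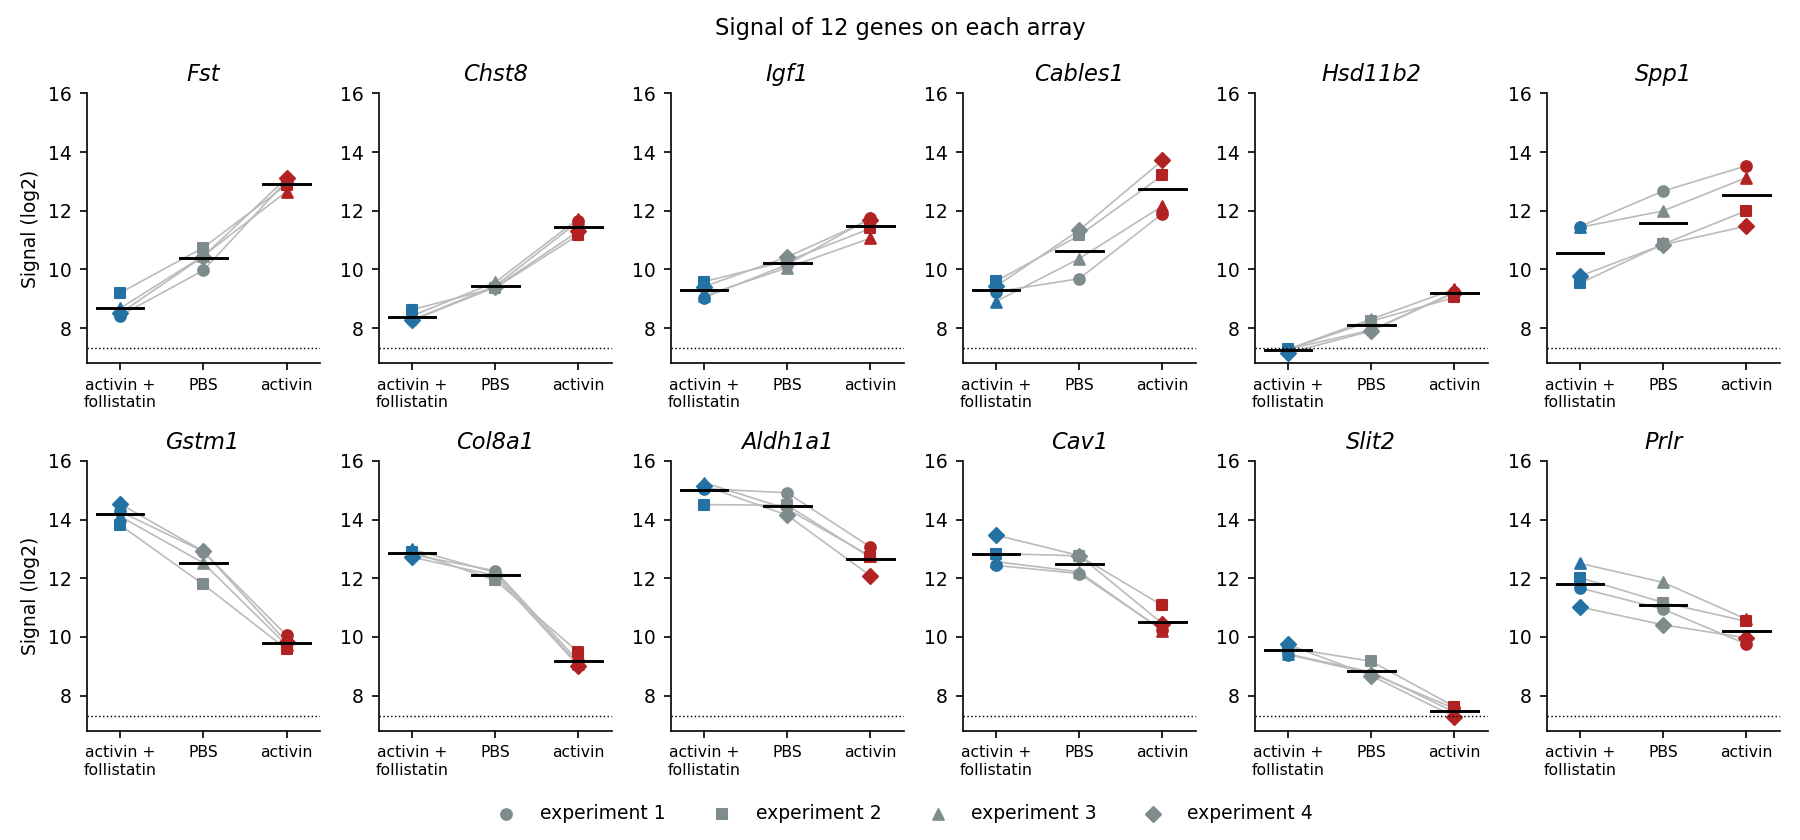
Signal (log2, vertical axis) of 12 genes on each array, by treatment (horizontal axis). Symbols mark the 4 experiments, grey lines join arrays of the same experiment, black bars are group means of 4 arrays and the dotted line is background. In every panel the activin arrays lie apart from those with follistatin added, and the PBS mean lies between.

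Growth factor and hormone signalling changed at single steps. Igf1, a growth factor for granulosa cells, read 11.75, 11.40, 11.07 and 11.70 with activin against 9.03, 9.58, 9.10 and 9.41 with follistatin added, and the groups did not overlap (2.20 ± 0.12, adjusted p = 2.26e-06, limma). Of 10 genes of this axis 2 were higher and 2 lower. Igfbp5, a binding protein that sequesters the growth factor, was lower (-1.15 ± 0.18), whereas Igfbp4, another binding protein, was higher (0.50 ± 0.13), a call lost without experiment 1, 2 or 3 and without either array of the pair in experiment 1, 2 or 3 (adjusted p = 0.0583 to 0.192, limma). The receptor gene Igf1r was not called (0.17).

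In prolactin and cytokine signalling, receptor and inhibitor moved in opposite directions. Prlr, the prolactin receptor, read 9.75, 10.53, 10.60 and 9.97 with activin and 11.67, 12.02, 12.51 and 11.02 with follistatin added (-1.59 ± 0.14). In each experiment its activin array was the lower one. Socs2, an inhibitor of growth hormone and prolactin signalling, was at 13.02, 13.06, 13.08 and 12.60 against 11.47, 11.49, 10.64 and 10.73 (1.85 ± 0.13). Of 21 genes on the list 3 were higher and 3 lower. Stat3 (-0.60 ± 0.08) and Jak2 (-0.38 ± 0.06) were among the lower ones, and Socs1 was among the higher ones (0.51 ± 0.11). The call of Socs1 was lost without experiment 1 and without the array with follistatin added of experiment 3 (adjusted p = 0.055 to 0.0927, limma), and that of Stat3 in limma without the block (adjusted p = 0.0594).

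Cyclic AMP, the messenger of follicle-stimulating hormone, acts through protein kinase A and is shaped by phosphodiesterases and regulators of G-protein signalling. Of 27 measured genes of this group 7 were higher and 2 lower. Prkar2a, a regulatory subunit of protein kinase A, was among them (0.42 ± 0.05). Rgs2 read 8.36, 8.40, 8.39 and 8.37 with activin and 7.34, 7.21, 7.27 and 7.35 with follistatin added, the latter at background and the former nearly identical in the 4 experiments (1.09 ± 0.07). Foxo1, a transcription factor that restrains growth of granulosa cells, was higher by 1.08 ± 0.06, with wide differences between experiments and a call lost in limma without the block (adjusted p = 0.138). Pde1b, a phosphodiesterase, was lower (-0.57 ± 0.05). Of 20 ovulation and luteinization genes 6 were higher and 2 lower, with Cebpb (1.22 ± 0.13) and Cebpa (0.60 ± 0.08), factors needed for luteinization in mice, among the higher ones. The luteinizing hormone receptor gene Lhcgr stayed at background in every group.

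The counts of 4 other signalling lists are to be read against the 18.8% of all named genes that were called. Of 18 Wnt genes 2 were higher and 2 lower: the ligand Wnt10b was lower (-1.14 ± 0.11), the secreted modulator Sfrp4 was higher (0.83 ± 0.07) and so was the coreceptor Lrp5 (0.49 ± 0.05). Sfrp4 lost its call without the block (adjusted p = 0.697, limma), and its level ranged from 11.9 to 14.5 between experiments with activin. Of 7 hedgehog genes, Dhh, the ligand that granulosa cells send to theca cells, was higher (0.89 ± 0.09) and Gli2 was slightly higher near background (0.23 ± 0.05), a call lost without experiment 2 or 3 and without the array with follistatin added of experiment 2 or 3 (adjusted p = 0.0505 to 0.0797, limma). Of 16 genes of EGF and FGF signalling, Erbb2 was higher (0.32 ± 0.03), and the ligands Fgf18 (-0.40 ± 0.04) and Fgf9 (-0.19 ± 0.05) were lower, the latter call being lost without experiment 2, 3 or 4 and without either array of the pair in experiment 2, 3 or 4 (adjusted p = 0.0829 to 0.218, limma). Of 9 Notch genes only Notch4 was called (0.29 ± 0.04).

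Most measured genes of cell division were higher with activin. Of 20 measured mitosis genes 14 were higher and 1 lower, with a median difference of 0.57, against 8.93% and 9.90% and a median of -0.002 over all named genes. With values raised to background, 7 were called higher. Cenpa, which encodes the histone H3 variant of centromeres, read 12.26, 11.61, 11.47 and 11.55 with activin and 10.97, 10.61, 10.70 and 10.13 with follistatin added (1.12 ± 0.09, adjusted p = 3.81e-05, limma). Ccnb1, cyclin B1, which drives entry into mitosis, was at 10.08, 9.87, 9.74 and 10.17 against 9.11, 8.91, 8.96 and 8.63 (1.07 ± 0.12). In both genes the groups did not overlap, and in both the lowest value of all came from experiment 4 with follistatin added. Plk1, a kinase that acts with cyclin B1, was higher by 0.81 ± 0.10 and Kif4, a chromosome-bound motor, by 0.59 ± 0.07. The exception was Stmn1, which destabilises microtubules, at -0.82 ± 0.10.

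DNA replication genes moved with them. Of 16 measured genes 10 were higher and 0 lower, with a median of 0.55. Cdc6, a licensing factor for replication origins, read 8.76, 8.51, 8.55 and 8.85 against 8.05, 7.83, 7.87 and 7.80, with no overlap (0.78 ± 0.07). Rrm2, which supplies deoxynucleotides, was higher by 0.69 ± 0.05, Tk1, thymidine kinase, by 0.63 ± 0.07, and Pcna, the sliding clamp of DNA polymerases, by 0.53 ± 0.06. Uck1, described above, is on this list for nucleotide supply. Both sides contributed to the gap: relative to PBS the median of the mitosis list was 0.21 with activin and -0.30 with activin plus follistatin, and that of the replication list 0.27 and -0.23. Against PBS, activin was called higher in 4 replication and 2 mitosis genes, and activin plus follistatin lower in 5 and 1. These 2 comparisons share the PBS arrays.

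**Figure D3:**
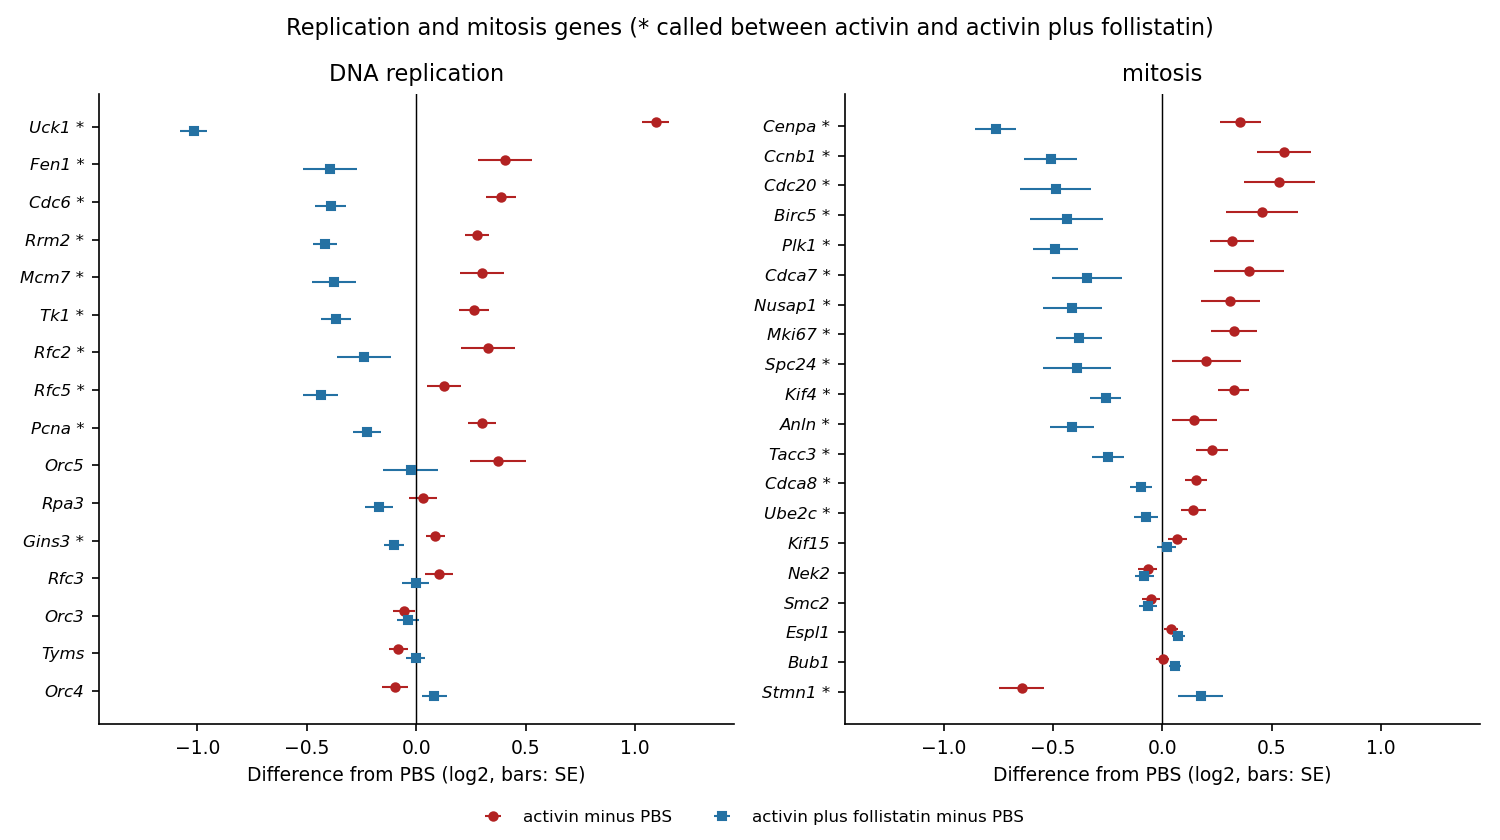
Differences from PBS (log2, horizontal axis, bars are SE from 4 arrays per group) for the measured genes of DNA replication (left) and mitosis (right). Red circles are activin minus PBS, blue squares activin plus follistatin minus PBS, and asterisks mark genes called between the treatments. For Cenpa the values are 0.36 and -0.76, and for Stmn1, the one gene of these lists called lower, -0.64 and 0.17.

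Promoters of late cell-cycle genes are known to carry CCAAT boxes, bound by NF-Y, and a cell cycle homology region with the core TTTGAA. The promoters of the 4 mitosis genes with the smallest p among those called higher are shown to let these elements be seen. They run from 250 bases before to 50 bases after the annotated start and are given 5′ to 3′ on the gene's strand, from RefSeq on GRCm38.p6, with matches to CCAAT or TTTGAA on either strand in capitals.
Cenpa (chr5:30666636-30666935, plus strand): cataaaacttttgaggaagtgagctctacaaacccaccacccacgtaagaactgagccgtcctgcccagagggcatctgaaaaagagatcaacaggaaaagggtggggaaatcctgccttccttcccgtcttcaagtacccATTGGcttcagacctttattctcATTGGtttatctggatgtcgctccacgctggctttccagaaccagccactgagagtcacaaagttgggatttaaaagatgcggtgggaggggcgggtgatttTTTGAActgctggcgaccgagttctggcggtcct
Ccnb1 (chr13:100786437-100786736, minus strand): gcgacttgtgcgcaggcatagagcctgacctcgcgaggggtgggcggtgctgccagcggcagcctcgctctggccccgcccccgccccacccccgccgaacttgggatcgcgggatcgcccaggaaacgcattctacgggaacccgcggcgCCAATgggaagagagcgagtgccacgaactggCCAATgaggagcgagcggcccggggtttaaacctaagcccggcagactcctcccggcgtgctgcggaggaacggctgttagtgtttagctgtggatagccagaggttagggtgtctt
Kif4 (chrX:100625815-100626114, plus strand): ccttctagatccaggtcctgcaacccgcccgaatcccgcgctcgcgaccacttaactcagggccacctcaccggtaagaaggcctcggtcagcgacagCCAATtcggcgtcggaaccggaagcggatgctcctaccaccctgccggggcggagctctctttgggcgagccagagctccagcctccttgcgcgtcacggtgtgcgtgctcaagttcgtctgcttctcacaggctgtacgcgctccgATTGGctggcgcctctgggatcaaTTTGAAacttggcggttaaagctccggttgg
Plk1 (chr7:122159185-122159484, plus strand): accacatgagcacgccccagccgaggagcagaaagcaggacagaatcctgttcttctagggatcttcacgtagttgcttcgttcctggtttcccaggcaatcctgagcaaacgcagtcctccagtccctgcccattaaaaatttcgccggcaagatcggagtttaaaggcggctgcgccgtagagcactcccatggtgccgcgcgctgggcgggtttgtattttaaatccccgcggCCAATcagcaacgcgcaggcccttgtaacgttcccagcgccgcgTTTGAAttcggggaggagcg
Of the 18 mitosis genes with 1 promoter entry, 11 held TTTGAA (61.1%) and 12 held CCAAT (66.7%), against 15.4% and 40.1% of all 5186 named genes with an entry. The replication genes did not share this: 1 of 11 held TTTGAA (9.1%). The run CAGAC, the letters of the SMAD binding element, was found in 49.6% of promoters of genes called higher, 47.9% of those called lower and 48.9% of all. TGACG, part of the cyclic AMP response element, was found in 35.0%, 30.4% and 26.9%. A match is a run of letters and not a bound site.

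Regulators of the step before replication went both ways. Of 13 G1 regulators 5 were higher and 3 lower. Cdkn1a, an inhibitor of cyclin-dependent kinases, read 11.61, 11.71, 11.999 and 11.32 with activin against 10.33, 11.09, 10.67 and 10.40 (1.04 ± 0.10), so it was higher together with the mitosis genes. Nearly all of its difference lay on the activin side of PBS (0.94). E2f2 was higher (0.43 ± 0.04), as was its partner Tfdp1 (0.29 ± 0.04), and Ccnd1, cyclin D1, was lower by a small amount near background (-0.19 ± 0.03). Of 12 DNA repair genes 4 were higher and 2 lower. Msh6, a mismatch repair protein, was higher (0.87 ± 0.05), as were Clspn, a checkpoint mediator (0.81 ± 0.07, second probe near background 0.19), and Rad54l (0.63 ± 0.11). Parp1, which marks DNA breaks with ADP-ribose, was lower: it read 9.23, 9.39, 9.02 and 9.72 with activin and 10.77, 10.75, 10.87 and 10.97 with follistatin added (-1.50 ± 0.10). Of 13 apoptosis genes 1 was higher and 3 lower. The survival genes Birc2 (-0.43 ± 0.09), Bcl2 (-0.32 ± 0.05) and Bcl2l2 (-0.26 ± 0.05) were the lower ones and the death receptor gene Tnfrsf10b (0.21 ± 0.03) the higher one. The call of Birc2 was lost without experiment 1 or 4 (adjusted p = 0.0511 to 0.0554, limma). The values of Bcl2 were between 7.29 and 7.69 in these groups, close to background.

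The called collagens were all lower with activin, while other matrix genes went both ways. Of 24 measured collagens 0 were higher and 5 lower. Col8a1, a short-chain network collagen, read 9.17, 9.48, 9.06 and 9.02 with activin and 12.81, 12.91, 12.99 and 12.72 with follistatin added, a gap of over 3 log2 units between the nearest arrays (-3.67 ± 0.10, adjusted p = 6.52e-08, limma). Col5a1 (-1.26 ± 0.14) and Col3a1 (-0.95 ± 0.11), of fibrils, and Col4a5 (-1.05 ± 0.05) and Col4a6 (-0.56 ± 0.06), of basement membranes, were the other 4. Most of the uncalled collagens were at background, where 15 of the 24 lay. Hspg2, the basement membrane proteoglycan perlecan, was lower by 0.92 (SE 0.13) on the same scale. Dcn, a small proteoglycan that binds collagen, varied between experiments: it read 8.14, 7.59, 7.61 and 7.86 with activin and 10.69, 10.17, 9.72 and 11.87 with follistatin added, where experiment 4 was highest (-2.81 ± 0.30). Its second probe, near background, differed by -0.96. Timp2, an inhibitor of metalloproteinases, was lower as well (-1.88 ± 0.14).

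The matrix genes that were higher belong to other functions. Loxl1, which crosslinks elastin, read 9.64, 10.19, 10.49 and 9.48 with activin and 7.82, 8.10, 8.06 and 7.93 with follistatin added, and the groups did not overlap (1.97 ± 0.12). Fbln1 (1.74 ± 0.07, second probe 0.87) and Emilin2 (1.62 ± 0.10), glycoproteins found with elastic fibres, were higher, while their relative Fbln2 was lower (-1.52 ± 0.24). Spp1, the secreted phosphoprotein osteopontin, was at 13.53, 12.004, 13.13 and 11.48 against 11.46, 9.53, 11.44 and 9.77. Both groups were high in experiments 1 and 3, and their ranges nearly met, but each experiment showed the rise (1.99 ± 0.13). Without the block the adjusted p of Spp1 was 0.0831 (limma). Sdc1, a heparan sulfate proteoglycan of the cell surface, was higher (1.70 ± 0.19). Of 21 proteoglycans and glycoproteins 2 were higher and 5 lower, of 5 elastic fibre genes 2 and 1, of 7 collagen processing genes 3 and 1, and of 20 proteases and inhibitors 0 and 3.

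Dcn, Col3a1 and Aldh1a1 are also on the list of theca and stroma markers, of which 1 of 13 was higher and 3 were lower. Aldh1a1, which makes retinoic acid, had a high signal and read 13.06, 12.71, 12.75 and 12.08 with activin and 15.06, 14.51, 15.26 and 15.16 with follistatin added (-2.35 ± 0.18). The summed linear signal of all 13 markers ranged from 6326 to 10606 in the activin arrays and from 26489 to 42311 in those with follistatin added. Without those 3 genes it ranged from 1510 to 1557 and from 1492 to 1511, and 7 of the other 10 markers were at or below background. Robo4, on the endothelial list, was lower (-0.80 ± 0.07), with the remaining 5 members not called and their sum at 772 to 833 with activin and 771 to 797 with follistatin added. Gpm6a, on the surface epithelium list, was lower too (-0.80 ± 0.09), the other 4 members were not called, and the sums of these 4 overlapped (959 to 1262 and 867 to 1393). The reduced sums leave out the members called lower in this same comparison, and many of the rest lay at background. They therefore cannot show whether the share of other cells differed. The part of other cell types in the differences of these 5 genes was not tested.

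Every called gene of the cadherin and catenin list and of the actin and caveolae list was lower with activin. Of 19 cadherins and catenins 0 were higher and 5 lower. Cdh2, N-cadherin, which joins granulosa cells, was lower by 0.63 (SE 0.09). The catenins Ctnna1 (-0.72 ± 0.10), Ctnnd1 (-0.80 ± 0.11) and Jup (-0.91 ± 0.04), which link cadherins to the cytoskeleton, fell with it, as did the protocadherin Pcdh9 (-1.07 ± 0.03), at background with activin. Of 22 genes of the actin cytoskeleton and caveolae 0 were higher and 12 lower, with a median of -0.30, and 6 were called lower when values were raised to background. Cav1, the coat protein of caveolae, read 10.24, 11.07, 10.21 and 10.45 with activin and 12.44, 12.84, 12.56 and 13.47 with follistatin added (-2.34 ± 0.15). Zyx, a focal adhesion protein, was at 12.44, 12.32, 12.17 and 11.79 against 13.23, 13.22, 13.10 and 13.29 (-1.03 ± 0.10). For both genes the groups did not overlap. The actin crosslinker Actn4 (-0.71 ± 0.07) and Actb, beta-actin (-0.61 ± 0.09), with a second probe at -0.70, also fell. Pak3, a kinase that acts on actin and is not on these lists, had one of the 6 smallest p among named genes (-1.08 ± 0.03, adjusted p = 1.48e-07, limma).

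In junctions and integrins, close relatives moved apart. The junctional adhesion molecule F11r was lower (-1.10 ± 0.09) and its relative Jam2 higher (1.53 ± 0.12). F11r read 8.66, 8.59, 8.81 and 8.62 with activin and 10.07, 9.51, 9.94 and 9.57 with follistatin added, and Jam2 read 10.92, 11.28, 11.003 and 10.72 and 9.90, 9.28, 9.40 and 9.21, with a second probe near background at 0.44. Of 12 gap and tight junction genes 2 were higher and 1 lower, and of 10 integrins 2 and 2. Itga11, a collagen receptor subunit, was lower (-1.26 ± 0.12), and the 3 other called integrins, Itga6, Itgav and Itgb5, lost their calls in limma without the block (adjusted p = 0.147, 0.204 and 0.197). The call of Itga6 was also lost without experiment 2 or 3, without the activin array of experiment 2 and without the array with follistatin added of experiment 3 or 4 (adjusted p = 0.0656 to 0.0911, limma). That of Itgav was lost without experiment 1, 2, 3 or 4, without the activin array of experiment 1, 2 or 4 and without the array with follistatin added of experiment 1 or 2 (adjusted p = 0.0533 to 0.23, limma), and that of Itgb5 without experiment 1, 2 or 3 and without either array of the pair in experiment 1, 2 or 3 (adjusted p = 0.071 to 0.238, limma). Of 10 tubulins, Tuba8 was higher (1.61 ± 0.07), while Tuba1a (-1.24 ± 0.20), Tubb2b (-0.56 ± 0.08) and Tuba3a (-0.38 ± 0.06) were lower.

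Steroid and lipid genes changed in selected steps. Of 14 steroidogenesis genes 4 were higher (28.6%) and 2 lower (14.3%). Of these 14 genes 12 were above background, and of all named genes above background 36.1% were called. Besides Hsd11b2 and Cyp1b1, Scarb1, the receptor that takes up cholesterol esters from lipoproteins, was higher. It read 13.95, 12.85, 14.20 and 12.07 with activin and 12.05, 11.75, 11.94 and 11.56 with follistatin added, so the activin arrays varied far more (1.44 ± 0.23). Stard5, a lipid transfer protein, was lower (-0.49 ± 0.07). Cyp11a1, the enzyme that starts steroid synthesis, was not called: it ranged from 10.9 to 14.4 between experiments with activin and from 10.4 to 14.7 with follistatin added, and its difference within experiments was -0.14 ± 0.15. Star, which brings cholesterol into mitochondria, was near background and not called (0.06 ± 0.04).

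Of 18 genes of cholesterol synthesis and uptake 6 were higher and 1 lower. Soat1, which stores cholesterol as esters, read 9.07, 8.46, 9.42 and 8.77 with activin and 7.52, 7.54, 7.56 and 7.61 with follistatin added, with no overlap (1.37 ± 0.13). The synthesis enzymes Fdps (1.03 ± 0.10), Acat2 (0.73 ± 0.07) and Nsdhl (0.66 ± 0.08, other probes 0.33 and 0.36) were higher and the exporter Abcg1 lower (-0.41 ± 0.08). The synthesis enzymes varied strongly between experiments, with Fdps at 14.38, 13.41, 14.67 and 12.93 and 13.69, 12.37, 13.41 and 11.81. Their calls rest on the comparison within experiments: 1 member of the list was called higher without the block. In fatty acid metabolism 4 of 19 genes were higher and 3 lower. Acaca, which commits carbon to fatty acids, was higher (0.77 ± 0.11), and genes of uptake and oxidation were lower: lipoprotein lipase Lpl (-1.40 ± 0.15), the carrier Fabp3 (-1.26 ± 0.09) and the trifunctional protein subunit Hadhb (-0.69 ± 0.06). Of 12 sphingolipid enzymes 1 was higher, Cers5, and 5 were lower, led by Sphk1, which makes sphingosine 1-phosphate (-1.77 ± 0.12), with the ceramidase Asah1 at -0.46 ± 0.08.

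In glycolysis, isoenzymes differed. Of 22 genes 7 were higher and 3 lower. Eno1, enolase, read 12.31, 11.15, 12.57 and 10.94 with activin and 10.43, 10.25, 10.30 and 10.03 with follistatin added (1.49 ± 0.21), with the larger gaps in experiments 1 and 3. Pfkfb3, which makes the activator of phosphofructokinase, was higher (1.27 ± 0.17), as was Gapdh (0.41 ± 0.06), whose second probe, also of high signal, differed by 0.37 and was not called. Pfkm, the muscle isoform of phosphofructokinase, was lower, at 9.85, 9.57, 9.78 and 9.66 against 10.75, 10.53, 10.77 and 10.62 (-0.95 ± 0.06). The 7 glycolysis genes called higher became 3 without the block and 4 with values raised to background, without experiment 1, without experiment 3, without the activin array of experiment 1, or without the array of activin plus follistatin of experiment 1 or 3. Of 13 genes of the tricarboxylic acid cycle 0 were higher and 2 lower, Sdhc (-0.40 ± 0.07) and Pdhb (-0.20 ± 0.04), the latter losing its call without experiment 1 (adjusted p = 0.0523, limma). Of 50 genes of oxidative phosphorylation 4 were higher and 8 lower. Ndufs4, a subunit of complex I, was higher (0.85 ± 0.11), and Atpif1, an inhibitor of ATP synthase with a high signal that is not on the list, was lower (-0.71 ± 0.08).

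Genes for making, folding and degrading proteins were higher in part. Of 73 cytosolic ribosomal proteins 13 were higher (17.8%) and 0 lower, all by small amounts, with a list median of 0.06. The smallest p belonged to Rpl23a (0.35 ± 0.06), and Rpl10 was among the others (0.34 ± 0.06). This count fell to 2 without the block, 4 with values raised to background, 7 without experiment 1 or 2, and 8 without the activin array or the array of activin plus follistatin of experiment 1. Over all named genes the share called higher was 8.93%, but 69 of the 73 ribosomal genes were above background. Of the 4082 named genes above background, 700 were called higher. Of 24 proteasome genes 9 were higher and 2 lower, among them Psma2 of the core (0.68 ± 0.08) and Psmd2 of the regulatory particle (0.42 ± 0.05), with Psmd8 in the other direction (-0.85 ± 0.08). The 9 became 5 with values raised to background, without experiment 3 or without its array of activin plus follistatin. Of 10 genes of endoplasmic reticulum chaperones and stress 5 were higher and 0 lower. Hspa5, the chaperone BiP, read 11.48, 11.28, 11.65 and 11.21 with activin and 10.10, 9.97, 10.09 and 10.17 with follistatin added, with no overlap (1.32 ± 0.08). Sel1l, of the pathway that removes misfolded proteins, was higher by 1.04 ± 0.08 and Xbp1, a transcription factor of the stress response, by 0.51 ± 0.08. Of 15 cytosolic and mitochondrial chaperones 2 were higher and 2 lower, with Hspe1 at 0.59 ± 0.04 and Hspb1 at -0.74 ± 0.12.

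Among 48 glycan and sulfate enzymes 9 were higher (18.8%) and 6 lower (12.5%), against 8.93% and 9.90% of all named genes. Against the rises of Chst8 and St3gal4 stood falls of the xylosyltransferase Gxylt2 (-2.14 ± 0.11) and of St3gal6 (-1.42 ± 0.08), a sialyltransferase of the family of St3gal4. Of 43 guidance and neuronal adhesion genes 6 were higher (14.0%) and 7 lower (16.3%). Robo1, a receptor for Slit ligands, was higher: it read 10.91, 10.47, 11.12 and 10.53 with activin and 9.45, 9.44, 9.70 and 9.72 with follistatin added (1.18 ± 0.14), in the opposite direction to Slit2. Of 132 solute carriers 20 were higher (15.2%) and 9 lower (6.8%). The largest rise of the named carriers was that of Slco3a1, a transporter of organic anions (1.73 ± 0.18), followed by Slc8a1, a sodium and calcium exchanger (1.17 ± 0.08), and Slc4a8, a bicarbonate transporter (1.04 ± 0.10). Of 7 retinoid genes 0 were higher and 2 lower, Aldh1a1 and Rdh10, which makes retinaldehyde (-0.58 ± 0.07).

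Of 77 developmental transcription factors 5 were higher (6.5%) and 10 lower (13.0%), against 8.93% and 9.90% of all named genes. Gata3 read 8.09, 7.49, 7.70 and 7.23 with activin and 9.63, 9.39, 9.29 and 8.86 with follistatin added. The lower group was activin in each experiment and the groups did not overlap (-1.67 ± 0.06, adjusted p = 3.44e-07, limma). The Krüppel-like factors Klf7 (-1.32 ± 0.08), Klf2 (-1.01 ± 0.13) and Klf6 (-0.96 ± 0.12) and also Sox4 (-1.06 ± 0.12) were lower. Of the granulosa genes, Wt1 (-0.73 ± 0.08) and Runx1 (-0.43 ± 0.06) were lower and Bex4 higher (0.74 ± 0.10), and the calls of Wt1 and Runx1 were lost in limma without the block (adjusted p = 0.0792 and 0.0711). Of 12 immediate early genes 0 were higher and 3 lower, among them Fosl2 (-0.60 ± 0.05). Of 23 nuclear receptors 0 were higher and 2 lower, among them the orphan receptor Rorb (-0.85 ± 0.05). The estrogen receptor gene Esr1 was at background and not called (-0.04 ± 0.05).

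Of 41 chemokines, interleukins and their receptors 3 were higher and 5 lower. Cxcl1, a neutrophil chemokine, read 10.95, 11.18, 10.51 and 11.38 with activin and 9.43, 9.62, 9.84 and 10.10 with follistatin added (1.25 ± 0.15). Cx3cl1, a chemokine tethered to the membrane, was higher (0.96 ± 0.07), while the receptor chain Il10rb (-0.86 ± 0.07) and the cytokine Il18 (-0.62 ± 0.06) were lower. Of 20 complement and interferon genes 0 were higher and 4 lower, with the protease C1s1 at -0.77 ± 0.06 and B2m, the light chain of class I molecules, at -0.44 ± 0.08. The shares were 7.3% higher and 12.2% lower for the first list and 0.0% and 20.0% for the second, against 8.93% and 9.90% of all named genes. Fcgr3, the one called gene of the macrophage list, differed by 0.26 ± 0.06 near background and lost its call without experiment 1, 2 or 3 and without either array of the pair in experiment 1, 2 or 3 (adjusted p = 0.075 to 0.187, limma). Of 392 olfactory and vomeronasal receptors, which these cells are not known to use, 1 was higher and 0 lower. Of 15 housekeeping genes 2 were higher and 3 lower.

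**Figure D4:**
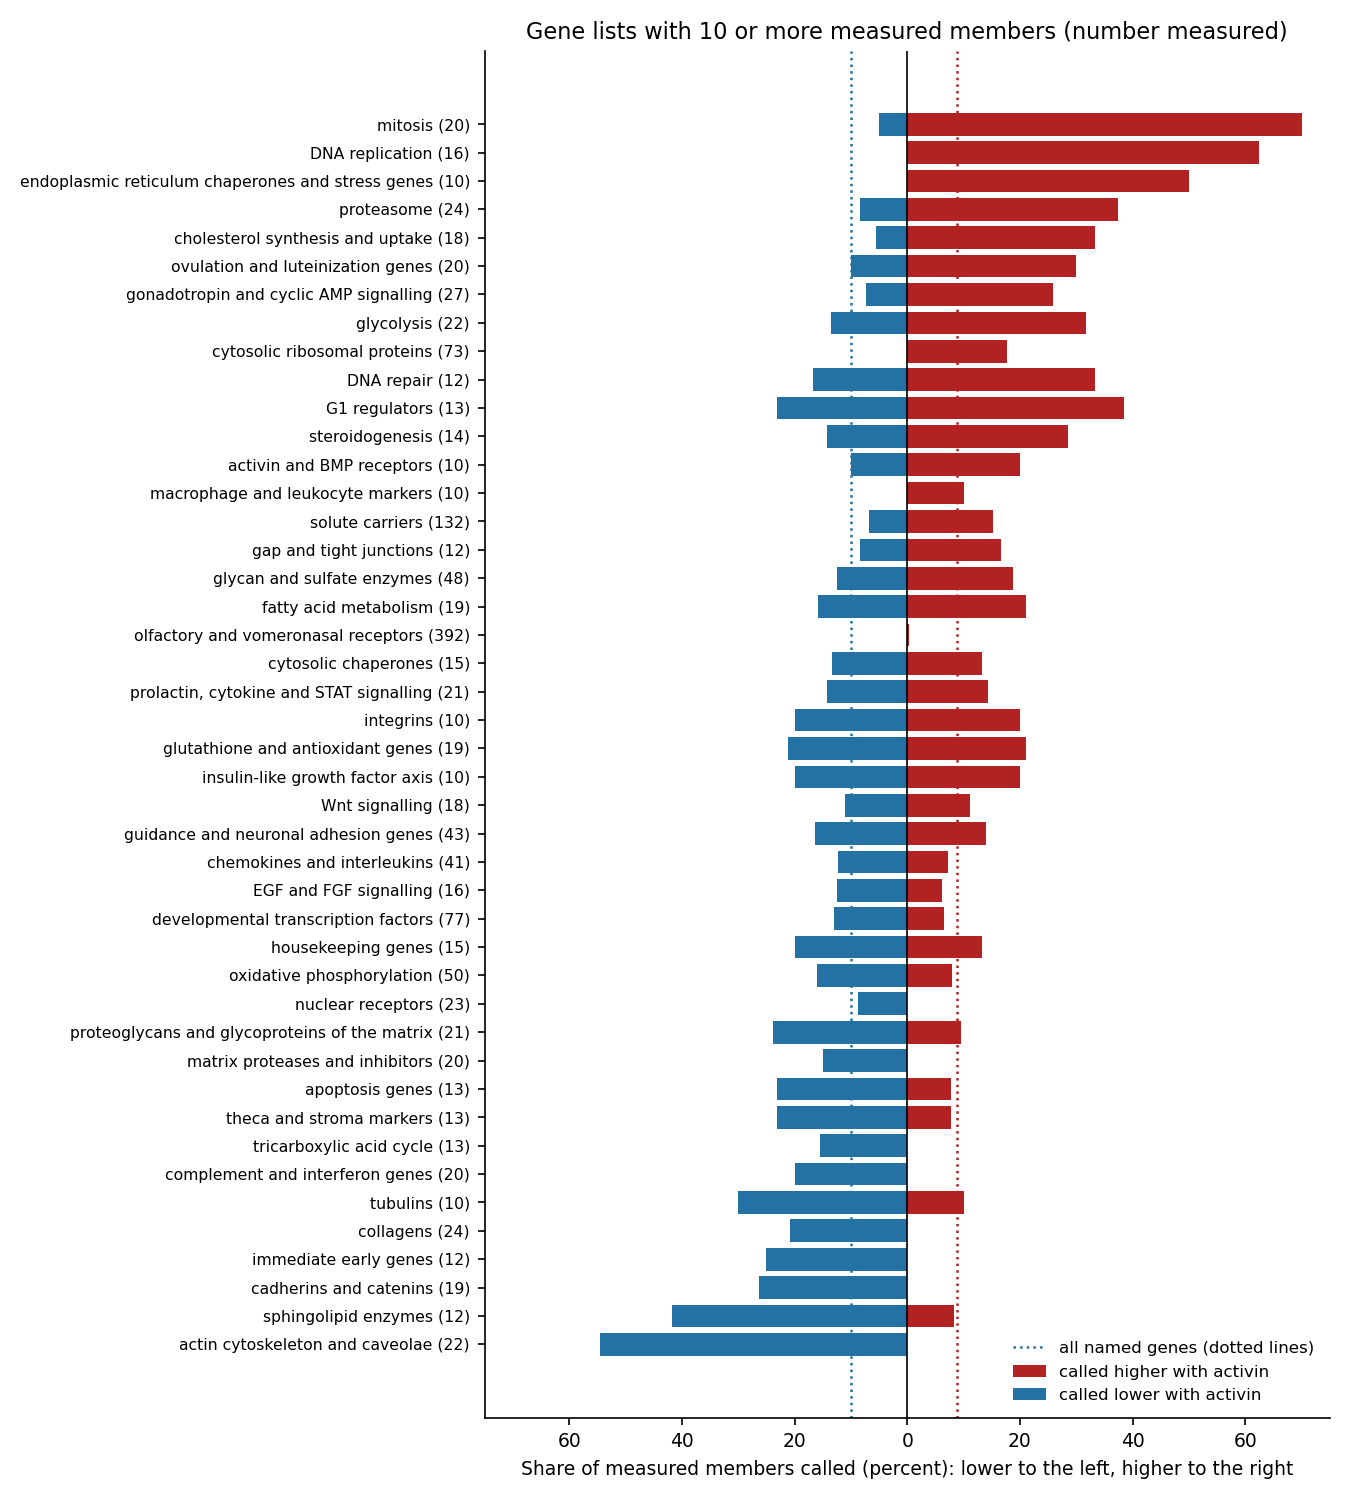
Share of the measured members of each list called higher (red, to the right) and lower (blue, to the left) with activin, in percent (horizontal axis), for the lists with 10 or more measured members (number in brackets). Dotted lines mark the shares of all 8144 named genes, 8.93% higher and 9.90% lower. Mitosis and DNA replication head the list, and the actin cytoskeleton and caveolae stand at its foot.

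In some called genes the cells with follistatin added stood farther from PBS than those with activin. The genes were taken where activin was within 0.2 of PBS, 6 in each direction, by the size of the other difference. Plxna2, a semaphorin receptor, read 9.73, 10.27, 9.06 and 10.04 with activin, 9.23, 9.30, 8.88 and 8.94 with follistatin added and 9.91 on average with PBS. The ranges of the 2 treatments overlapped between experiments, and the difference was 0.68 ± 0.12. Rgs4, a regulator of G-protein signalling, differed from PBS by -0.65 with the combination and by 0.15 with activin. The others on the higher side were Ccdc86, Hnrnpdl, Rfc5 and Anln, the latter a protein of the dividing cell's furrow. On the lower side were Neurl1a, Aldh3b1, Rgs10, Frmd6 and Zswim4, among others. The call of Rgs10 was lost without experiment 2, 3 or 4, without the activin array of experiment 2 and without the array with follistatin added of experiment 2, 3 or 4 (adjusted p = 0.0513 to 0.0909, limma) and that of Hnrnpdl without experiment 4 (adjusted p = 0.0551, limma). In limma without the block the calls of Plxna2, Ccdc86, Neurl1a, Aldh3b1 and Rgs10 were lost (adjusted p = 0.152, 0.183, 0.209, 0.725 and 0.5). Aldh3b1, an aldehyde dehydrogenase, was 0.42 above PBS with the combination. Of the genes named here, all but Anln and Rgs10 were called for activin plus follistatin against PBS. These genes were picked by the size of that same difference, so the calls are no separate support. Among genes named in other paragraphs, the calls of Abcg1, Acat2, Acvr1b, B2m, Bcl2l2, Fcgr3, Fdps, Gapdh, Gli2, Hspb1, Igfbp4, Ltbp3, Nsdhl, Pdhb, Smad4 and Stard5 were also lost in limma without the block (adjusted p = 0.0619 for Hspb1 to 0.766 for Igfbp4).

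The size of the difference varied between experiments, and not in the same way for all genes. Over the genes called higher its median was 0.41, 0.38, 0.35 and 0.42 in experiments 1 to 4, and over those called lower -0.36, -0.35, -0.41 and -0.46. The mitosis list had medians of 0.44, 0.52, 0.26 and 0.89, and the replication list 0.41, 0.55, 0.31 and 0.80, so experiment 4 was the highest and experiment 3 the lowest for both. The glycolysis list had medians of 0.03, 0.09, 0.43 and -0.01, with experiment 3 highest. Some single genes were also highest in experiment 3. Examples were Scarb1, at 1.90, 1.10, 2.25 and 0.52, Pfkfb3, at 1.54, 0.84, 1.94 and 0.78, and Sdc1, at 1.84, 1.47, 2.43 and 1.06. In these the difference was larger in experiments 1 and 3 than in the others. Col8a1 (-3.64, -3.43, -3.93 and -3.70), Pak3 (-1.15, -0.98, -1.13 and -1.06) and St3gal4 (2.37, 2.07, 2.36 and 2.22) varied little. Dcn, at -2.56, -2.58, -2.11 and -4.01, had its largest fall in experiment 4. These examples were chosen after their values were seen.

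**Figure D5:**
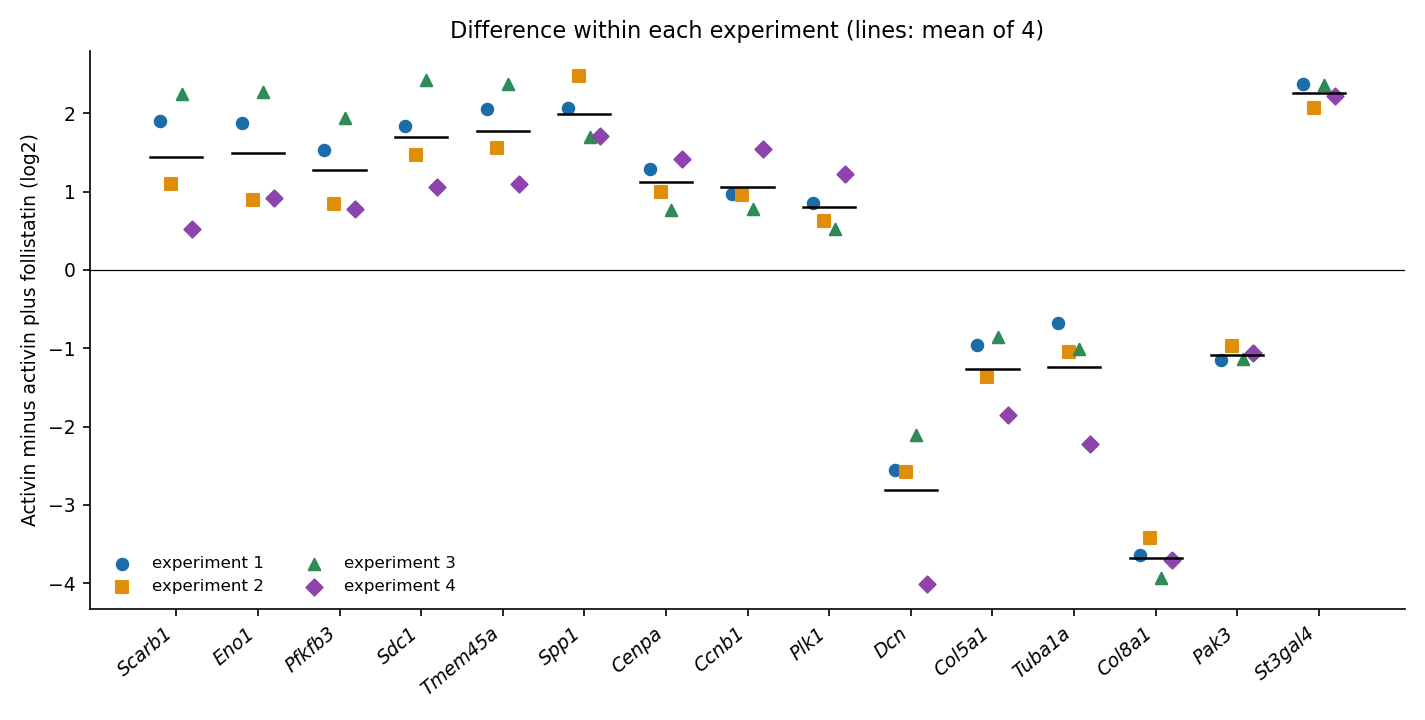
Activin minus activin plus follistatin (log2, vertical axis) within each of the 4 experiments for 15 genes (horizontal axis). Each symbol is 1 experiment and each black line the mean of 4. Scarb1 runs from 0.52 in experiment 4 to 2.25 in experiment 3, whereas Pak3 stays between -1.15 and -0.98.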

How the data were processed

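Each of the 12 arrays has 1 column of log2 signals in the table the authors deposited, for 46116 probes with no detection calls and no scanner intensities. Per the submitters' processing notes lumi 1.2.0 was used. Whether the deposited log2 scale is plain or variance-stabilised, and how arrays were normalized to each other, is not given in the sources used here, so a fold read from it is approximate. After 23 control spots were left out, 46093 probes were fitted with limma 3.58.1 in R 4.3.3, with 3 group means and the experiment as a fixed block, and two-sided p-values were adjusted by the Benjamini-Hochberg method. Background was set at the highest mean of a control spot (7.31), which 14707 probes (31.9%) exceeded. The number of arrays, 4 per group, limits the precision. The p-values rest on the spread left over all 12 arrays after the treatment and experiment terms. With 1 array of each treatment per experiment, this is how the treatment differences vary among experiments, pooled over the 3 groups. Differences in overall level between experiments are taken out.

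The probe identifiers carry padded numbers, of which 82.6% were gene identifiers in RefSeq's mouse gene table, against 46.0%, 44.6% and 41.5% after adding 1, 2 or 5. Names came from these numbers for 9832 probes, from accessions for 9 and from mitochondrial gene names for 13. No other probe was named. A number that is listed by chance would give a wrong name. In the 1303 genes with exactly 2 named probes, the mean signals of the 2 probes had a Spearman correlation of 0.331.

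Per the labels' design text, each experiment gave 1 sample of each treatment, so the number marks a shared preparation. Over 14707 probes, deviations from the group means correlated at 0.331 to 0.801 between arrays with the same number and at -0.632 to 0.406 between the others. In data simulated for this comparison over 46093 probes, shifts of 0.5 were recovered in 73.1% of 93 probes and shifts of 1 in 98.1% of 107, with 11 false calls. Shifts were given only to probes above background, so recovery at lower signals was not simulated.

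The genes, gene lists and tests were chosen with earlier results of these data known. Named are the called genes with the same direction in all 4 experiments that had the 20 largest rises or falls, the 6 smallest p, the 6 highest signals per direction, or, with activin within 0.2 of PBS, the 6 largest differences of the combination from PBS per direction. From each of the 59 lists, up to 5 called members by p and up to 3 others by signal were added, with a fixed set of ovarian genes. Lists are described by counts and medians, with no set test. Promoters of 300 bases came from RefSeq (GRCm38.p6), for 5186 named genes with 1 entry, and were searched on both strands for 4 short motifs. Alternatives were the block left out or random, the 8 arrays alone, quantile normalization, median centring, values raised to background, probes above background alone, array weights, a trended and robust prior, the mean of a gene's probes, and each experiment or array left out. Some genes that meet the naming rule are not reported here.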

Additional observations from a re-analysis of the deposited data

Results flagged for a closer look

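In each group of 4 arrays, a single array was looked for whose gap to the nearest other one was over Dixon's critical share of the group's whole range, a rule that chance meets in about 1 of 20 groups. Of 404 groups tested for the genes named here, 16 (4.0%) met it. They are given as values.

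Both groups held such an array for the oocyte genes in experiment 1. Nlrp5 read 8.13 with activin there, against 7.05 to 7.10 in the other experiments, and 8.54 with follistatin added, against 7.0 to 7.19. Dppa3 read 7.66, against 7.09 to 7.17, and 7.81, against 7.11 to 7.19. Among the arrays with activin, experiment 4 stood apart for Gask1b (10.17, others 10.68 to 10.78) and Socs2 (12.60, others 13.02 to 13.08), experiment 2 for Frmd6 (8.08, others 7.76 to 7.79) and Hadhb (11.40, others 11.10 to 11.15), and experiment 3 for Bcl2 (7.37, others 7.29 to 7.30). Among the arrays with follistatin added, experiment 4 stood apart for Hsd11b2 (7.15, others 7.27 to 7.28), Pak3 (10.17, others 9.63 to 9.67) and Psma2 (14.92, others 14.40 to 14.46). In the same group experiment 1 stood apart for Ndufs4 (12.74, others 13.02 to 13.07), Stmn1 (11.02, others 11.37 to 11.44) and Tuba8 (7.41, others 7.85 to 7.87), and experiment 3 for Tnfrsf10b (7.37, others 7.29 to 7.30). The calls of these genes, other than the oocyte genes, which were not called, held without the array in question.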

How the results depend on the processing

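The experiment as a block had the largest effect together with the floor on low values. Without the replicate block, 3296 probes (1682 higher, 1614 lower) and 969 named genes (447 higher, 522 lower) were called, 964 of these genes also with the block. With values raised to background the counts were 2795 probes (1372 higher, 1423 lower) and 880 named genes (404 higher, 476 lower). The other settings gave 3741 to 5241 probes and 1098 to 1620 named genes. Leaving out 1 experiment or 1 array gave 3900 to 4810 probes (1879 to 2420 higher, 1959 to 2390 lower) and 1200 to 1431 named genes (525 to 706 higher, 629 to 750 lower). Of the lists followed, with values raised to background 7 mitosis, 8 DNA replication, 4 ribosomal, 5 proteasome and 4 glycolysis genes were higher and 6 actin and caveolae genes lower. Without the replicate block 2 ribosomal, 1 cholesterol and 3 glycolysis genes were higher, with a random block 3, 2 and 3, and with the trended and robust prior 6 ribosomal and 5 proteasome genes. The 8 arrays alone gave 4 glycolysis genes. Leaving out 1 experiment or 1 array gave 7 to 13 ribosomal, 5 to 9 proteasome, 4 to 9 glycolysis, 5 to 6 cholesterol, 10 to 14 mitosis and 8 to 11 replication genes higher and 8 to 11 actin and caveolae genes lower. Of 229 named genes called by the rule, 160 kept their call under all 22 alternatives that tested them, 69 lost it under at least 1, and 0 changed direction. The cause of these differences was not tested. Signal over background limits the comparison, since 4062 named genes lay at or below it.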

Other observations

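Some genes with very strong signals were called for small differences. Eef1g, a subunit of translation elongation factor 1, averaged 15.47 over the 12 arrays and read 15.50, 15.65, 15.61 and 15.88 with activin against 15.12, 15.41, 15.34 and 15.38 with follistatin added (0.34 ± 0.06, adjusted p = 0.00415, limma). Hspa8, the constitutive cytosolic chaperone, averaged 15.86 and was lower (-0.26 ± 0.05), with a second probe at -0.25, but its call was lost with quantile normalization and with the trended and robust prior (adjusted p = 0.172 and 0.127, limma). Actb and Atpif1, described above, had like signals and differed more. Hmgn1, a nucleosome-binding protein, was lower as well (-0.38 ± 0.07, mean signal 14.75). For Eef1g and Hmgn1 all 4 activin arrays lay on one side of the 4 arrays with follistatin added, and no alternative ended either call.

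Of the 36239 unnamed probes, 3439 were called and 66 differed by more than 2 log2 units. Their genes were not identified here. Activin differed from PBS in 62 named genes that were not called between the treatments, and activin plus follistatin differed from PBS in 5 such genes.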
